A study of Mus musculus with 6 samples.

Results

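The antiviral effector genes that interferons switch on were followed in mouse oral tumours after an agonistic antibody to CD40. The 10 genes Isg15, Usp18, Ifit1, Ifit2, Ifit3, Oas2, Oas3, Oasl1, Zbp1 and Mx1 were taken by symbol from a table of 770 genes, and all 10 were present. The samples were primary oral squamous cell carcinomas of mice exposed to 4NQO, a chemical carcinogen that damages the oral lining, and their RNA came from formalin-fixed, paraffin-embedded tissue. Of these tumours, 3 samples came from animals given agonistic anti-CD40 and 3 from animals given vehicle. The labels give no mouse strain beyond the model, no sex, age, dose or time, and do not tie each sample of a group to an animal of its own, so the p-values speak for the scatter of these 6 samples, part of which may be technical.

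Interferons alpha and beta bind the receptor chains Ifnar1 and Ifnar2, and the kinases Jak1 and Tyk2 then activate a transcription factor complex, with Stat2 and Irf9 among its parts, that binds a short DNA element, the interferon-stimulated response element, and raises transcription of many genes. The products studied here tag proteins, hold back viral RNA, make the second messenger that activates RNase L, or sense unusual nucleic acids, and in tumours they are commonly read as a mark of interferon exposure. CD40 is a receptor of antigen-presenting cells and B cells, and its engagement activates those cells.

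The genes share a known control element, so the promoters in which it was found are shown. RefSeq promoter windows of build GRCm38.p6, each reaching from 250 bases before to 50 bases after a transcription start, held 7 windows of 6 of the 10 genes (Isg15, Ifit1, Ifit2, Ifit3, Oas3 and Oasl1). The core of the response element was searched as GAAANNGAAA on both strands, with overlapping matches counted. It was found in 4 of the 7 windows and in 3.44% of all 32851 windows, and in 7.19% of the 695 windows of genes in the table. The windows of Isg15, Ifit1, Ifit3 and Oas3 read as follows, 5′ to 3′ along the gene, with the matched bases in capitals.
Isg15, chr4:156200769-156201068, minus strand: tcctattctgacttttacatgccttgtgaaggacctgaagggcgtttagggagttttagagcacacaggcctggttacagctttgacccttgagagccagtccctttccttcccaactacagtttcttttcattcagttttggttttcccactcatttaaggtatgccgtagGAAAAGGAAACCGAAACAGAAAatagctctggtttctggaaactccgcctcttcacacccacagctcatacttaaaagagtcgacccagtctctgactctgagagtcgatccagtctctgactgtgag
Ifit1, chr19:34640639-34640938, plus strand: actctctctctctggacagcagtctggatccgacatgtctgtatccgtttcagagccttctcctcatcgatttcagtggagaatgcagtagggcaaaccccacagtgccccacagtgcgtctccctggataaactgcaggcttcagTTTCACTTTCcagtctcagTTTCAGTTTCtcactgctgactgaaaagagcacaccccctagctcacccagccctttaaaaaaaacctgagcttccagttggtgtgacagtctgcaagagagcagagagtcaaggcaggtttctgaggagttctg
Ifit3, chr19:34583279-34583578, plus strand: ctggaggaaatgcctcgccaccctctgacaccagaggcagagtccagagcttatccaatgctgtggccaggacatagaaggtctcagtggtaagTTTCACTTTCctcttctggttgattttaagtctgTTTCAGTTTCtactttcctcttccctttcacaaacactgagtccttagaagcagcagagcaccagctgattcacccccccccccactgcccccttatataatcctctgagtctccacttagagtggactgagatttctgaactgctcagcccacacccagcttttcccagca
Oas3, chr5:120777610-120777909, minus strand: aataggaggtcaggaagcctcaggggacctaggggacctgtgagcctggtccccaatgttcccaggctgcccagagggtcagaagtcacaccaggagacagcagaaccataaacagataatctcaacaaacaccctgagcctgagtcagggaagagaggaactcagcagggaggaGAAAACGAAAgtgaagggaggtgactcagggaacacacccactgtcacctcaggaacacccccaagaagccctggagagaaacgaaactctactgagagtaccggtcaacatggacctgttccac
Isg15 held 3 overlapping matches on the gene's strand, the first starting 78 bases before the start site. Ifit1 and Ifit3 each held 2 matches on the opposite strand (TTTC in place of GAAA when read along the gene), and Oas3 held 1 on its own strand, 75 bases before the start. The windows of Ifit2 and Oasl1 held no match to these letters. A match is a description of the sequence only.

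In the comparison of anti-CD40 with vehicle tumours, the mean level of all 10 genes was lower in anti-CD40 tumours, by a median of −0.54 on the log2 scale, and none of the 10 passed the test. The median difference of all 770 genes was 0.038, and 45.5% of them had a lower mean in anti-CD40 tumours. Differences are anti-CD40 minus vehicle means of the deposited log2 normalized counts, tested with limma on all 770 genes with Benjamini-Hochberg adjustment at 0.05. Limma called 0 of 770 genes (0%), with a lowest adjusted p of 0.974, and 25 genes (3.25%) had an unadjusted p under 0.05, none of them among the 10. Limma-voom, run on counts recovered from the table, made no call either, and gave 31 genes (4.03%) an unadjusted p under 0.05, again none of the 10. The groups overlapped for each of the 10 genes, and 10.3% of all genes had groups that did not overlap. Full separation of 3 against 3 libraries has an exact permutation p of 0.1, so the overlap does not set the 10 genes apart. The lower means rested largely on vehicle library 1, which was the highest library for 8 of the 10 genes and for 22.3% of all genes. Leaving out vehicle 1 brought the median difference to −0.14, leaving out anti-CD40 1 to −0.32 and leaving out vehicle 3 to −0.90. The lower mean held with any 1 library left out for 7 of the 10 genes. Ifit1 and Usp18 turned slightly positive when vehicle 1 was left out, and Mx1, at background, had no stable sign. In bulk tumour RNA, fewer expressing cells and less RNA per cell cannot be told apart.

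**Figure D1:**
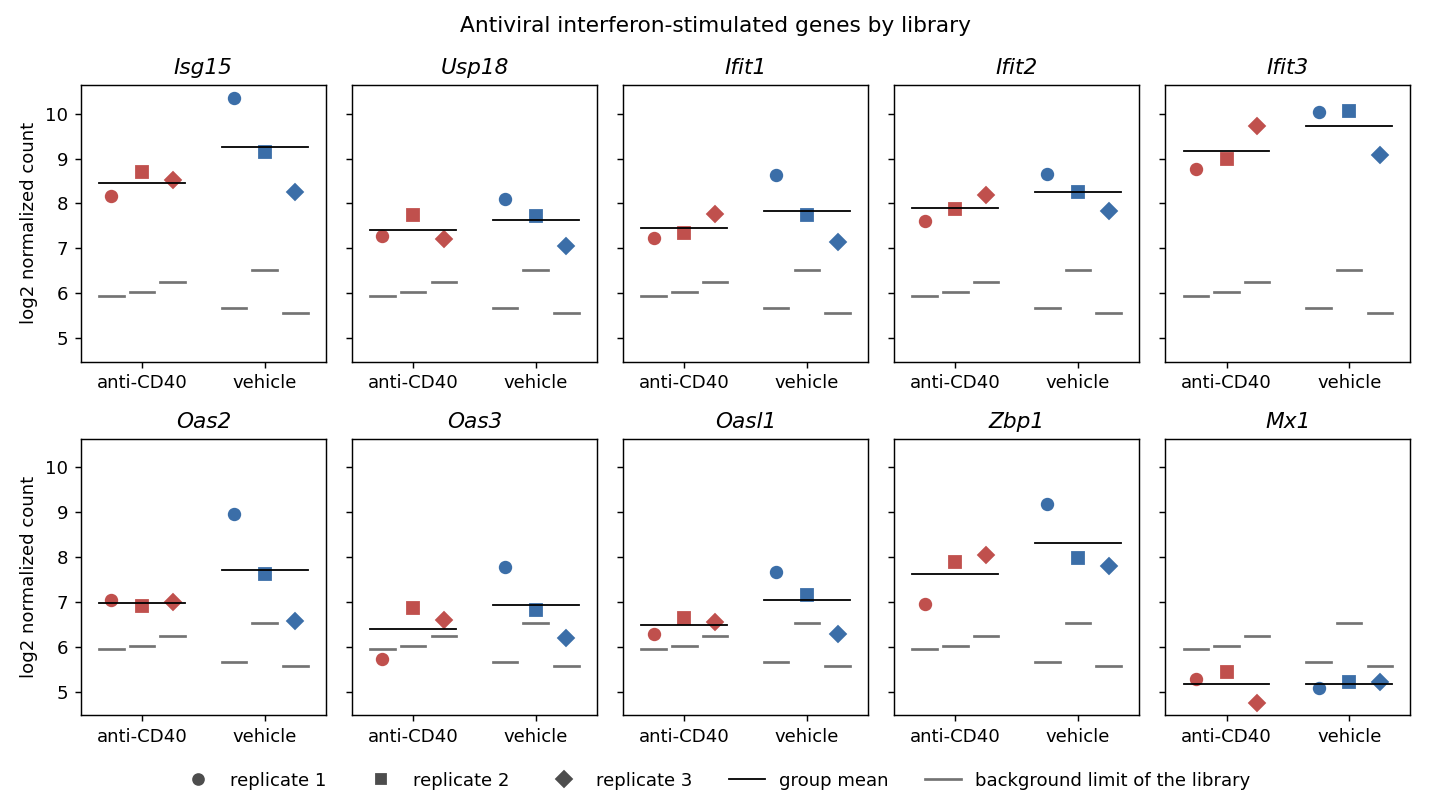
Log2 normalized count of each gene (y axis) in the 3 anti-CD40 and 3 vehicle libraries, with group means as black lines and the background limit of each library as grey lines. Vehicle 1 is the top point for 8 of the 10 genes, and Mx1 lies below the limit in every library.

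Isg15 and Usp18 act on the same modification. Isg15 is a ubiquitin-like protein that is attached to other proteins, and Usp18 removes it and also dampens signalling at the interferon receptor. Isg15 had log2 normalized counts of 8.16, 8.70 and 8.51 in anti-CD40 libraries 1, 2 and 3, against 10.36, 9.14 and 8.26 in vehicle libraries 1, 2 and 3. Vehicle 1 and 2 were above every anti-CD40 library, while vehicle 3 lay within the anti-CD40 range. In recovered counts, vehicle 1 held 715 Isg15 counts (95% exact Poisson interval 664 to 769, which covers counting error only), and the other 5 libraries held 123 to 176. The Isg15 difference was −0.80 (SE 0.50, 95% confidence interval −1.98 to 0.38, limma adjusted p = 0.974), the largest in size of the 10 genes. It was −0.24 without vehicle 1 and −1.29 without vehicle 3. Usp18 was at 7.28, 7.74 and 7.20 log2 in the anti-CD40 libraries, against 8.11, 7.72 and 7.04 in the vehicle libraries. Its levels were interleaved, with anti-CD40 2 second only to vehicle 1. The Usp18 difference of −0.22 (SE 0.33) had an interval from −0.98 to 0.55, and became 0.027 once vehicle 1 was left out, −0.51 once vehicle 3 was and −0.38 once anti-CD40 2 was. On the scale of the deposited values, Usp18 spanned 2.1-fold from its lowest to its highest library and Isg15 4.6-fold.

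The Ifit genes encode tetratricopeptide repeat proteins. Ifit1 binds viral RNA that lacks the host's cap methylation, Ifit2 is a related RNA-binding protein, and Ifit3, in humans, stabilises IFIT1 on RNA. Ifit1 was at 7.24, 7.35 and 7.76 log2 in anti-CD40 libraries 1, 2 and 3, against 8.64, 7.75 and 7.13 in the vehicle libraries. Vehicle 1 stood 0.89 above vehicle 2, while vehicle 3 was the lowest of all 6 libraries. The Ifit1 difference was −0.39 (SE 0.40, interval −1.31 to 0.54), and 0.012 without vehicle 1. Ifit2 was at 7.62, 7.89 and 8.18 log2 in the anti-CD40 libraries, against 8.66, 8.26 and 7.83 in the vehicle libraries. The Ifit2 difference was −0.36 (SE 0.29, interval −1.03 to 0.32), and it was −0.15 without vehicle 1 and −0.57 without vehicle 3. Vehicle 1 and 2 lay above all anti-CD40 libraries for Ifit2 and vehicle 3 lay among them. Ifit3 was at 8.779, 9.001 and 9.721 log2 in the anti-CD40 libraries, against 10.04, 10.07 and 9.08 in the vehicle libraries. For Ifit3, unlike the others above background, vehicle 2 was as high as vehicle 1, which stood 0.021 below it. The Ifit3 difference was −0.56 (SE 0.37, interval −1.44 to 0.31), and leaving out 1 library moved it as far as −0.37 (anti-CD40 1) and −0.89 (vehicle 3). All 3 Ifit genes had their highest anti-CD40 level in library 3 and their lowest in library 1. The mouse has a close copy of Ifit3 named Ifit3b, and the probe sequences were not used here, so Ifit3 values may hold signal of both.

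Oas2 and Oas3 are oligoadenylate synthetases, which on binding double-stranded RNA make the activator of RNase L. Oasl1 is a relative without that enzyme activity that, in mice, inhibits translation of Irf7. Oas2 was at 7.05, 6.90 and 7.00 log2 in anti-CD40 libraries 1, 2 and 3, against 8.95, 7.63 and 6.58 in the vehicle libraries. The anti-CD40 libraries lay within 0.15 log2 of each other for Oas2 and inside the vehicle range of 2.37. The Oas2 difference was −0.74 (SE 0.54, interval −2.01 to 0.53), −0.12 without vehicle 1 and −1.31 without vehicle 3. Oas3 was at 5.72, 6.87 and 6.60 log2 in the anti-CD40 libraries, against 7.78, 6.82 and 6.19 in the vehicle libraries. It was above background in 5 of 6 libraries and below it in anti-CD40 1, where 21 counts were recovered (exact Poisson interval 13.0 to 32.1), against 117 in vehicle 1. The Oas3 difference was −0.54 (SE 0.47, interval −1.63 to 0.56), and leaving out 1 library gave −0.11 (vehicle 1), −0.20 (anti-CD40 1) or −0.90 (vehicle 3). Oasl1 was at 6.28, 6.64 and 6.56 log2 in the anti-CD40 libraries, against 7.66, 7.15 and 6.29 in the vehicle libraries. Its difference was −0.54 (SE 0.36, interval −1.39 to 0.30), −0.23 without vehicle 1 and −0.92 without vehicle 3. Oas3 and Oasl1 lay near background, where background counts, and to a lesser degree the offset added before the logarithm, shrink log2 differences. Limma-voom on recovered counts, without that offset but also with another scaling of the libraries, gave −0.63 for Oas3 and −0.62 for Oasl1. It moved the median difference of all genes from 0.038 to −0.0056. Members farther above background moved too, Isg15 from −0.80 to −0.87 and Zbp1 from −0.69 to −0.80. The part of the offset in these shifts was not tested. After the negative controls' mean count was subtracted, an alternative chosen after seeing the data, the Oas3 difference was −1.14 and that of Oasl1 −0.92, neither called. The Oas3 value leans on anti-CD40 1, where its 21 counts stood against a negative control mean of 15.9 and few remained. The same subtraction took the difference of Mx1, which was below background in every library, from −0.015 to −0.59. Counts that fell below 1 after subtraction were set to 1, and for Mx1 this was so in every library except vehicle 3. There 19 counts stood against a negative control mean of 13.9, so the −0.59 does not measure a difference between the groups.

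Zbp1 is a sensor of Z-form nucleic acid that can trigger necroptosis. Its levels were 6.95, 7.89 and 8.05 log2 in anti-CD40 libraries 1, 2 and 3, against 9.18, 7.99 and 7.80 in the vehicle libraries. Vehicle 1 stood above the rest and anti-CD40 1 below, and the other 4 libraries lay within 7.80 and 8.05. The Zbp1 difference was −0.69 (SE 0.45, interval −1.75 to 0.36), and it was −0.27 without vehicle 1 and −0.35 without anti-CD40 1. The difference in Zbp1 was of the size of its spread within groups, where the SD was 0.59 log2 in anti-CD40 and 0.75 in vehicle tumours (n = 3 each).

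Mx1 encodes a dynamin-like GTPase that blocks influenza virus, and many inbred mouse strains carry a defective copy. The RefSeq table of GRCm38.p6, built on C57BL/6J, lists Mx1 as a transcribed pseudogene, and the labels name no strain. Mx1 was at 5.28, 5.45 and 4.75 log2 in anti-CD40 libraries 1, 2 and 3, against 5.08, 5.22 and 5.22 in the vehicle libraries. Its 8 to 19 recovered counts were below the background limit in all 6 libraries, in which the negative controls averaged 12.4 to 16.1 counts, so Mx1 was not detectable at this depth. Vehicle 1, the highest library for 8 of the other 9 genes, was not the highest for Mx1. The relative Mx2, which was above background in all 6 libraries, had 6.001, 6.605 and 6.864 log2 in the anti-CD40 libraries, against 7.62, 7.09 and 5.89 in the vehicle libraries. Mx2 had its 2 highest levels in vehicle 1 and 2 and its lowest in vehicle 3.

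**Figure D2:**
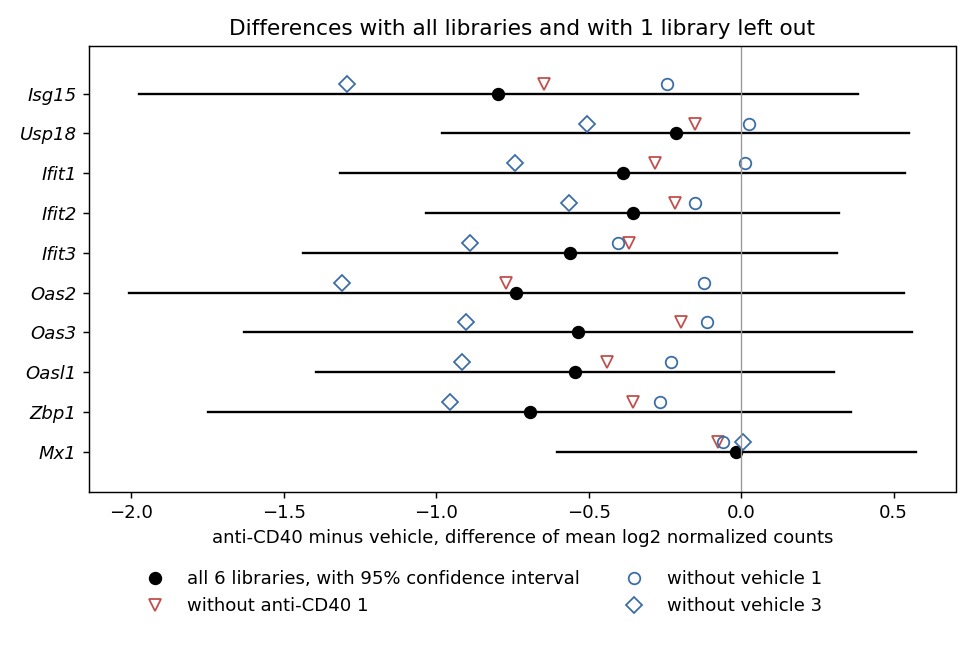
Difference of mean log2 normalized counts, anti-CD40 minus vehicle (x axis), with its 95% confidence interval, and the same difference with anti-CD40 1, vehicle 1 or vehicle 3 left out. Every interval includes 0. Apart from Mx1, the differences come nearer to 0 without vehicle 1 and are larger in size without vehicle 3.

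The 10 genes spread less among anti-CD40 tumours than among vehicle tumours. The SD was smaller in the anti-CD40 group for 9 of the 10 genes, with Mx1 the exception, and for 59.4% of all genes. The median SD of the 10 genes was 0.29 in anti-CD40 and 0.72 in vehicle tumours, beside 0.30 and 0.38 over all genes. No test of the spread was made. After each gene was centred on its mean of 6 libraries, the 10 genes averaged −0.51, −0.10 and −0.11 log2 in anti-CD40 libraries 1, 2 and 3, against 0.90, 0.23 and −0.40 in vehicle libraries 1, 2 and 3. All 770 genes treated in the same way averaged −0.018, 0.16 and −0.083 in the anti-CD40 libraries, against 0.064, 0.18 and −0.31 in the vehicle libraries. Vehicle 3 was low for the table as a whole, and vehicle 1 was high for these genes.

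Among themselves the members differed in how far vehicle 1 stood out. Its level minus the mean of the other 5 libraries was 1.92 log2 for Oas2, 1.81 for Isg15, 1.44 for Zbp1, 1.34 for Oas3 and 1.19 for Ifit1. It was 1.08 for Oasl1 and between 0.70 and 0.72 for Ifit2, Usp18 and Ifit3. By family, the Oas genes averaged 1.20 log2 above their own mean in vehicle 1 and −0.21 in anti-CD40 3, while the Ifit genes averaged 0.73 in vehicle 1 and 0.17 in anti-CD40 3. The exact order of the libraries was not shared by all members, though vehicle 1 was first or second in each of the 9 genes above background.

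Likeness to the common pattern was measured as the root mean square distance between a gene's centred levels and the mean centred levels of the 10 genes over 6 libraries. Of 515 other genes above background in all libraries, the 10 nearest lay at 0.15 to 0.20 log2, beside a median distance of 0.49. They were Cd74 (the invariant chain of MHC class II), the Fc receptor gene Fcgr4, the immediate-early factor gene Egr1, the MHC class II gene H2-Ab1, Xaf1, the integrin gene Itgae, Stat2, Tnfsf10 (TRAIL), Irf7 and the lectin receptor gene Klrd1. Vehicle 1 was the highest library for each of them, which follows from a choice by distance to a pattern that peaks there. Among the members, set against the profile of the other 9, Oasl1 was nearest at 0.091 and Mx1 farthest at 0.61. Ifit1 lay at 0.17 and Ifit2 at 0.20. The remaining members lay at 0.26 (Usp18) to 0.42 (Oas2), farther than the 10 named genes, which were chosen as nearest. The distance counts size as well as shape. Oas2 and Isg15 stood at 1.599 and 1.505 in vehicle 1, where the mean of the 10 genes was 0.90, so a larger swing in the same direction also adds distance. The 6 libraries share 1 table and its scaling, so these distances are a description.

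**Figure D3:**
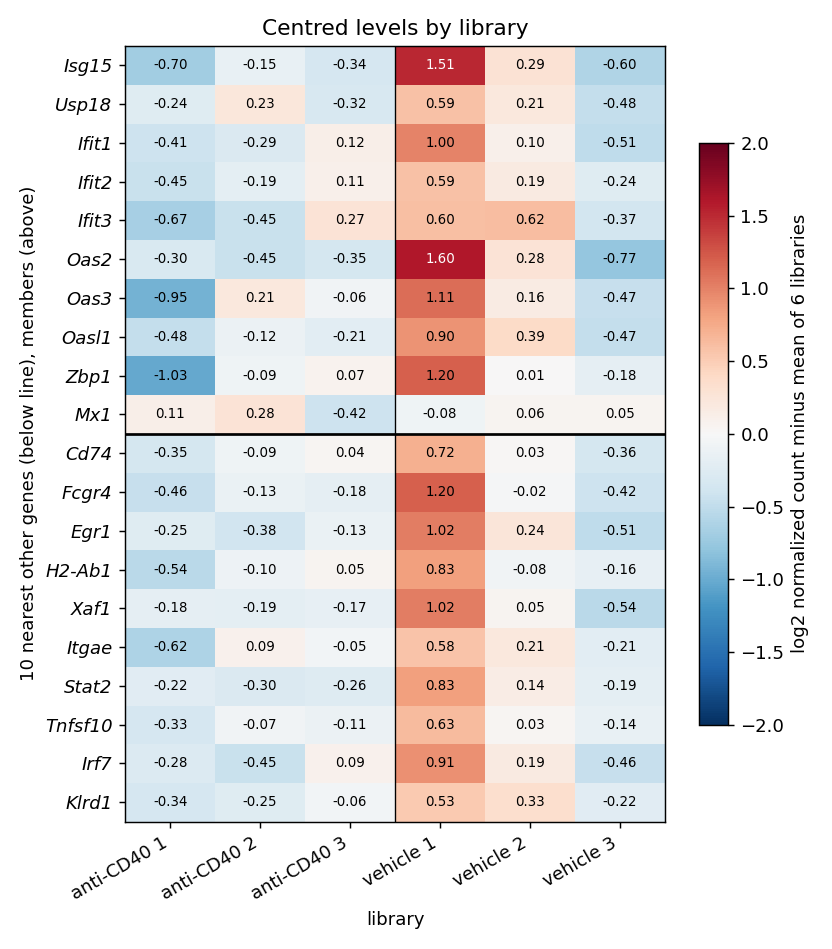
Log2 normalized count minus the gene's mean of 6 libraries, in colour and digits, for the 10 members (above the line) and the 10 nearest other genes (below it), with libraries as columns. The vehicle 1 column is the reddest for every row except Ifit3, where vehicle 2 is level with it, and Mx1.

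Upstream of these genes, the interferon ligands were not detectable at this depth. Ifna1, Ifna2, Ifna4, Ifnb1 and Ifnl2 were at or below background in all 6 libraries. The receptor chains were present in all libraries and nearly level. Ifnar1 had a mean of 9.96 ± 0.13 log2 in anti-CD40 and 9.99 ± 0.13 in vehicle tumours (SD, n = 3 each), and Ifnar2 8.57 ± 0.30 in anti-CD40 and 8.44 ± 0.26 in vehicle tumours. The Ifnar1 difference of −0.036 had an interval from −0.53 to 0.46. Of 9 measured genes of signal transduction, limma called 0, 6 had lower and 3 higher means in anti-CD40 tumours, and the median difference was −0.061. It changed sign, to 0.040, on leaving out vehicle 1, and was −0.17 on leaving out vehicle 3. Stat2 was at 8.98, 8.90 and 8.93 log2 in the anti-CD40 libraries, against 10.02, 9.34 and 9.01 in the vehicle libraries, so its groups did not overlap. The Stat2 difference was −0.52 (SE 0.30, limma adjusted p = 0.974). Stat2 was named for the size of its difference, and 10.3% of all genes had groups that did not overlap. Irf7, which amplifies interferon production, and the inhibitor gene Socs1 each differed by −0.43 with overlapping groups, at an adjusted p of 0.974 from limma.

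Of 14 measured genes of nucleic acid sensing, 7 had lower and 7 higher means in anti-CD40 tumours, with a median difference of −0.075 and 0 called by limma. The median of this list was 0.13 if vehicle 1 was left out, a change of sign, and −0.26 if vehicle 3 was. The kinase gene Ikbke (−0.52) and Nlrc5 (−0.58), a regulator of MHC class I genes, had lower means. Tlr7 (0.54) and Tlr8 (0.53), endosomal RNA receptors, had higher means and groups that did not overlap, a direction opposite to the means of the 10 effector genes. All 4 had an adjusted p of 0.974 from limma. Tlr7 rested on 27 to 48 recovered counts, near background, and 10.3% of all genes had groups that did not overlap.

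Of 15 other interferon-stimulated genes, 9 had lower and 6 higher means, with a median difference of −0.16 and 0 called by limma. That median turned to 0.065 when vehicle 1 was left out and was −0.33 when vehicle 3 was. Not all of them followed vehicle 1, which was the highest library for 8 of the 15. The chemokine gene Cxcl10 was at 5.89, 8.0 and 8.03 log2 in the anti-CD40 libraries, against 10.47, 8.43 and 7.57 in the vehicle libraries. Xaf1, a proapoptotic gene, was at 8.46, 8.45 and 8.47 in the anti-CD40 libraries, against 9.66, 8.69 and 8.10 in the vehicle libraries, a pattern of tight anti-CD40 and wide vehicle values that Oas2 also showed. Isg20, an exonuclease gene, ran otherwise, at 11.19, 10.36 and 9.23 in the anti-CD40 libraries, against 8.92, 10.94 and 9.67 in the vehicle libraries, so vehicle 1 was its lowest library.

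Of 18 measured genes of interferon gamma and its response, 15 had lower and 3 higher means, with a median difference of −0.37 and 0 called by limma. Leaving out vehicle 1 gave a median of −0.22, and leaving out vehicle 3 one of −0.54. Vehicle 1 was highest for 14 of the 18, and Ifng itself was at or below background in all libraries. Cd274, which encodes PD-L1, differed by −1.03, the transporter gene Tap1 by −0.88, the MHC class II activator gene Ciita by −0.78 and the chemokine gene Cxcl9 by −1.35, each at an adjusted p of 0.974 from limma. The groups did not overlap for Cd274, whose unadjusted p from limma was 0.0304, or for Tap1, and they overlapped for Ciita and Cxcl9. These 4 were named for the largest differences of their list, which favours separated groups and small p-values. Of all genes, 10.3% had groups that did not overlap and 3.25% an unadjusted p under 0.05 with limma. Cxcl9 was at 6.19, 8.13 and 7.36 log2 in the anti-CD40 libraries, against 10.19, 7.48 and 8.06 in the vehicle libraries, with vehicle 1 the highest and anti-CD40 1 the lowest, as for Isg15, Ifit2, Oas3, Oasl1 and Zbp1.

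**Figure D4:**
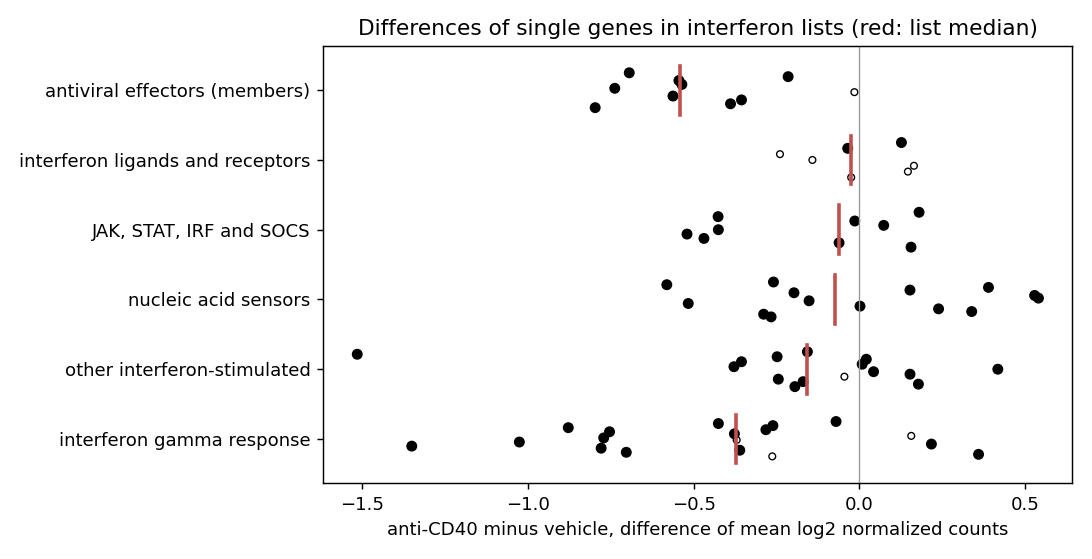
Difference of mean log2 normalized counts, anti-CD40 minus vehicle (x axis), for each gene of the 10 antiviral effectors and of 5 related lists, with list medians in red. Filled points are genes above background in at least 3 libraries. The medians are −0.54 for the effectors, −0.37 for the interferon gamma response and between −0.16 and −0.025 for the other lists.

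Markers of other cell types in the tumours are given beside the effector genes, and their part in the differences was not tested. Of 8 T cell genes, 8 had lower means in anti-CD40 tumours and 1, Cd5, named here after its value was seen, had an unadjusted p under 0.05 with limma. Their summed level was 631, 1115 and 753 normalized counts in anti-CD40 libraries 1, 2 and 3, against 1266, 1080 and 918 in the vehicle libraries, with vehicle 1 the highest and anti-CD40 1 the lowest. Cd8a was above background in 1 of 6 libraries. Of 10 macrophage and monocyte genes, 8 had higher means, and their summed level was 4796, 5882 and 4780 in the anti-CD40 libraries, against 5580, 5524 and 3433 in the vehicle libraries. Of 5 plasmacytoid dendritic cell genes, 3 were measured, without Siglech, and their summed level was 258 to 310 in anti-CD40 and 223 to 339 in vehicle libraries. Of these, Il3ra was above background in all 6 libraries, Ccr9 in 3 and Klra17 in 1. The 8 neutrophil and immature myeloid genes had mean levels of 9.59, 8.92 and 6.82 log2 in the anti-CD40 libraries, against 6.90, 9.61 and 6.48 in the vehicle libraries. Their summed level was 92923, 150039 and 28267 in the anti-CD40 libraries, against 110658, 146519 and 28644 in the vehicle libraries. The order of the libraries thus depended on the measure. In vehicle 1, 3 of the 8 genes were above background, S100a8 among them at 16.75 log2. Of 5 natural killer cell genes, 3 had lower means, and 1, Klrk1, likewise named after its value was seen, had an unadjusted p under 0.05 with limma. Their summed level was 279 to 297 normalized counts in anti-CD40 and 310 to 420 in vehicle libraries, with Ncr1 and Klra1 at or below background in all libraries. Their mean levels overlapped, at 5.57 to 5.71 log2 in anti-CD40 and 5.60 to 6.15 in vehicle libraries, so here too the separation depended on the measure. Of 6 B cell genes, 3 had lower and 3 higher means, with sums of 218 to 559 in anti-CD40 and 230 to 1015 in vehicle libraries, highest in vehicle 2. Of 6 fibroblast genes, 6 had higher means, with sums of 28987 to 42127 in anti-CD40 and 20514 to 36646 in vehicle libraries. Of 6 endothelial genes, 5 had higher means, with sums of 5524 to 8315 in anti-CD40 and 4849 to 7454 in vehicle libraries. Of 4 measured epithelial genes, 3 had lower means, with sums of 7850 to 10405 in anti-CD40 and 10359 to 13112 in vehicle libraries. The epithelial genes Epcam and Cdh1, looked up to check the labelled carcinoma, were above background in all 6 libraries.

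The libraries held 333400 to 497475 recovered counts in anti-CD40 tumours and 357258 to 578598 in vehicle tumours over the 770 genes. Background was the mean of 8 negative controls plus 2 SD, at 24.7 to 26.6 counts, and 523 genes exceeded it in all libraries and 82 in none. Of the 10 members, 8 exceeded it in all libraries, Oas3 in 5 of 6 and Mx1 in none. The 20 housekeeping genes averaged 11.01 to 11.11 log2 in the 6 libraries.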

How the data were processed

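Log2 normalized counts of 6 samples were deposited by the authors in 1 table, whose name gives the unit. For the platform, normalization and genome build, the sources used here give nothing. It held 770 genes, 6 positive and 8 negative controls. Each value equals log2 of a whole count multiplied by a factor of its library, with 4.55 added. Counts recovered on that basis were whole to within 0.05 for 4704 of 4704 values, and they set the background limits. The factors were 2.29 to 2.80 in anti-CD40 and 1.72 to 3.28 in vehicle libraries. Counts of replicate pairs gave chi-square values of 64.2 to 121 for each degree of freedom, so none was a duplicate.

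Groups were compared with limma 3.58.1 in R 4.3.3 (lmFit and eBayes, two-sided, 4 residual and 3.37 prior degrees of freedom, Benjamini-Hochberg over 770 genes). The procedure was tested on simulated data. The smallest p that exact permutation allows here is 0.1. Promoters were read with Python 3.11.15. The members and the gene lists were chosen with earlier results of these data known. Genes named beside the members were, per list, up to 4 with the largest difference among those above background in at least 3 libraries, and the 10 of smallest distance to the common pattern. 1 gene that the rule names is not reported here. Mx2 and Isg20 came under the same rule. Alternatives were other scalings, a background filter, other eBayes settings, limma-voom, a replicate block, each library left out and, added later, background subtraction.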

Additional observations from a re-analysis of the deposited data

How the results depend on the processing

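Limma called 0 genes of the table and 0 of the 10 members under each of the 14 alternatives (9 members under the background filter, which removed Mx1). The members' median difference stayed negative in all of them, between −0.74 after background subtraction and −0.50 after quantile normalization, and between −0.90 without vehicle 3 and −0.14 without vehicle 1. Of the members, 7 kept a negative difference throughout. With 1 library left out, Ifit1 ranged from −0.74 to 0.012, Usp18 from −0.51 to 0.027 and Mx1 from −0.16 to 0.19. The Ifit1 and Usp18 signs turned without vehicle 1, and that of Mx1, at background, turned without anti-CD40 3 (0.19), vehicle 2 (0.0093) or vehicle 3 (0.0056) and after centring on housekeeping genes (0.0055). Without vehicle 3, 4 of the 10 members and 43 of all 770 genes had an unadjusted p under 0.05, and under each of the other alternatives 0 members did. The median of the interferon ligand and receptor list ranged from −0.12 to 0.12 with 1 library left out. With the replicate block no gene was called, and 32 had an unadjusted p under 0.05. Deviations of same-numbered libraries correlated at −0.43, 0.069 and 0.28 for numbers 1, 2 and 3. Of the 6 libraries, 2 correlated best with their own number. The samples are known to share only a number, and with 3 libraries a group this check cannot exclude a pairing. Quantile normalization moved the median of all genes to −0.0072. With 3 samples a group the confidence intervals of the members are 1.2 to 2.5 log2 wide, and Oas3 and Mx1 rest on few counts.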
